A study of Homo sapiens with 12 samples.

Results

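The cells described here are the control Nalm-6 cells with the most transcript of mitotic genes. The line was established from a patient with acute lymphoblastic leukemia of B cell precursors. For each cell, a score M was taken as the UMIs (transcript molecules counted once) of CCNB1, CCNB2, CDC20, PLK1, AURKA, CENPF, HMMR and UBE2C per 10000 UMIs of the cell. Members were chosen by M alone: the 20% of cells with the highest M were kept, and they are called high-M cells below. They numbered 1120 of the 5598 control cells that passed the cell filter (more than 2000 and fewer than 6000 genes, and under 20% mitochondrial UMIs), and the other 4478 passing cells of the same library were set against them. The series held 10398 passing cells in 2 single-cell libraries.

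Both single-cell libraries came from Nalm-6 cells and were labelled 72 h. For the library labelled RUNX1, the labels give induced RUNX1 expression and 500 ng/ml doxycycline. That library was used only for a comparison at the end. The control was labelled as the empty vector, its title names DMSO, and doxycycline is absent from its labels. Vector, inducer and solvent therefore cannot be told apart in any comparison between the libraries. RUNX1 transcript was lower in the library labelled RUNX1 than in the control (29.2 CPM in its cells at the same threshold of M against 66.1 CPM in the high-M cells of the control), so the induction is not seen in this count. The counts were made on hg19, and whether they take in transcript of the vector was not tested. Each condition was 1 library, so every value below is a description of these cells, with no test between conditions and no replicate check. Intervals are at 95% and cover counting error only.

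A dividing cell first copies its DNA in S phase, then prepares for division in G2 and separates its chromosomes in mitosis. Cyclin B with the kinase CDK1 drives entry into mitosis, the kinases PLK1 and AURKA build the spindle, and CDC20 activates the anaphase promoting complex, a ubiquitin ligase that ends mitosis by marking cyclin B and securin for destruction. Many of these genes are held silent in resting and G1 cells through a promoter element called the CHR and are turned on in G2 with the help of NF-Y, which binds CCAAT boxes, and of B-MYB and FOXM1. Genes of S phase entry, such as the E cyclins, are instead driven by E2F factors, and the replication-dependent histones are made while DNA is copied.

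M was a continuous score with no gap at the threshold. In high-M cells it ran from 12.9 to 73.8 with a median of 24.0, and in other cells from 0 to 12.89 with a median of 4.12. The groups do not overlap because M chose them. The last cells inside had M of 12.926, 12.927 and 12.929, and the first cells outside had 12.890, 12.872 and 12.871. Within 1 unit of the threshold lay 95 high-M cells and 105 other cells, so the 1120 cells are a range of a score and not a separate type.

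**Figure D1:**
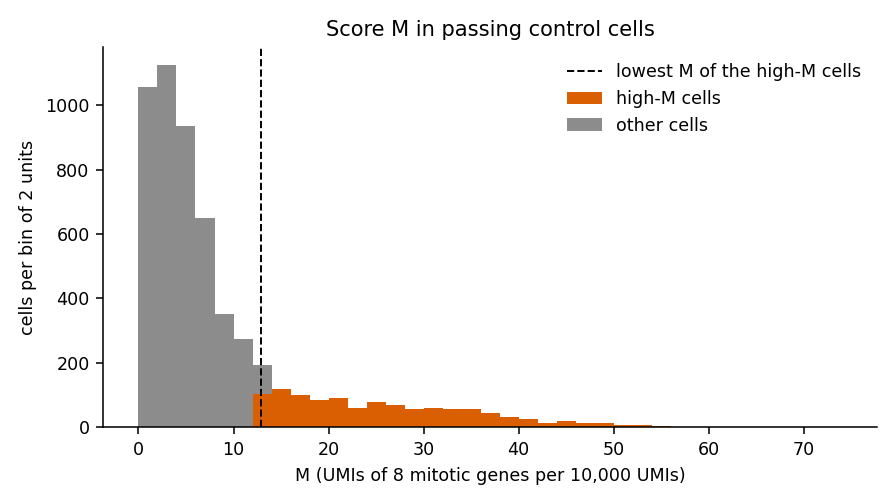
Number of passing control cells in bins of 2 units of M (UMIs of the 8 mitotic genes per 10000 UMIs), with high-M cells in orange and other cells in grey. The dashed line is the lowest M of the high-M cells, 12.9, and the counts run through it with no dip.

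The mitotic label was checked with genes that M did not read. G2/M genes that go with M are higher in cells chosen by M, so this is no independent test. The summed UMIs of TOP2A, TPX2, BUB1, CCNA2, CDK1, AURKB, NUSAP1 and CENPE had a median of 19.9 per 10000 UMIs in high-M cells (range 0.997 to 53.1) and of 5.16 in other cells (range 0 to 36.1). Of the 1120 high-M cells, 1086 (96.96%) lay above the median of the other cells. Phases were called from 48 G2/M and 43 S phase genes without those of M, after each cell was thinned to 8000 UMIs. G2/M was called in 98.0% of 1073 high-M cells (97.0 to 98.8, exact Clopper-Pearson) and in 22.8% of 4112 other cells (21.5 to 24.1), S phase in 1.58% and 61.9%, and G1 in 0.373% and 15.3%. Thinning left out 47 high-M and 366 other cells that held too few UMIs, and without thinning G2/M was called in 97.5% of high-M cells and 19.9% of other cells. By these genes the high-M cells fit the label of G2 or mitosis, and the score does not separate the one from the other.

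High-M cells held more RNA molecules. The median was 16257.5 UMIs and 3945 genes in high-M cells, against 11921 UMIs and 3184.5 genes in other cells, and the ranges overlapped widely (5395 to 39323 UMIs and 5056 to 35958 UMIs). Of the 280 deepest cells of the library, 146 (52.1%) were high-M cells, which is 13.0% of the high-M cells. No doublet caller was run, and the part that doublets take in these counts was not tested. The mitochondrial share had a median of 8.92% in high-M cells and 9.52% in other cells. UMIs counted on the mouse genome had a median of 280 per high-M cell and 243 per other cell, or 172 and 201 per 10000 human UMIs. Human and mouse cells were pooled, and the source of these UMIs within each barcode was not tested. Only 10 passing barcodes were shared by the libraries, and 1 of them was a high-M cell.

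Markers of B cell precursors were present at like levels in both groups of cells. VPREB1, the surrogate light chain of the precursor receptor, stood at 1128 CPM in high-M cells and 987 CPM in other cells, and PAX5, the transcription factor of B cell commitment, at 167 and 145 CPM. CPM here are UMIs of a gene per 1000000 human UMIs summed over the cells of a group (18871481 in high-M cells and 56882656 in other cells). Of 36 measured genes of the B lineage list, 0 were higher or lower by 0.5 on the log2 scale. Their ratios ran from -0.43 to 0.46, with 29 above 0 and 7 below. The T cell genes CD3D, CD3E, CD3G, CD5, CD7, TRBC2 and IL32 had 0 UMIs in both groups, which allows up to 0.159 CPM in high-M cells and 0.0527 CPM in other cells. LCK, ZAP70 and TRAC, the only T cell list genes measured, stood at 11.8, 14.3 and 10.0 CPM in high-M cells against 8.58, 11.6 and 6.80 CPM in other cells. Myeloid markers summed to 9.43 CPM in high-M cells and 10.2 CPM in other cells, and erythroid and fibroblast lists to under 1 CPM in each group.

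Across the 7575 genes measured (at least 10 CPM in either group), 285 (3.76%) were higher in high-M cells by 0.5 or more on the log2 scale and 84 (1.11%) were lower. At 2-fold, 94 (1.24%) were higher and 9 (0.119%) lower. The median log2 ratio of high-M cells over other cells was 0.08. Since M read 8 genes of these same cells, these counts follow from the choice of cells, and the accounts of gene groups below give counts and medians without a test. The split between higher and lower depends on the scaling. With mitochondrial and ribosomal protein genes left out of the totals, 246 genes were higher and 149 lower, and with the median ratio set to 0, 202 were higher and 119 lower.

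The 8 genes of M, which chose the cells, differed among themselves. PLK1 (ENSG00000166851; GRCh37 chromosome 16, 23688977 to 23701688, plus strand) stood at 185 CPM in high-M cells and 15.8 CPM in other cells, a log2 ratio of 3.55 (3.44 to 3.65), the highest of all measured genes. CCNB1, which encodes cyclin B1 (ENSG00000134057; chromosome 5, 68462962 to 68474072, plus strand), stood at 349 and 48.5 CPM, with a ratio of 2.85. CDC20 had a ratio of 2.51, AURKA of 2.45, UBE2C, the ubiquitin-conjugating enzyme of the anaphase promoting complex, of 2.42, and HMMR, a spindle protein, of 2.32. CENPF, an outer kinetochore protein, had 2.10 and CCNB2, which encodes cyclin B2, 2.00. These values describe the rule and are no finding about the cells.

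The share of cells with a UMI shows how many cells carried each transcript. After thinning to 8000 UMIs, a CCNB1 UMI was seen in 90.1% of high-M cells (88.2 to 91.8), in 28.7% of other cells (27.4 to 30.2) and in 4.96% of the 504 thinned cells of the lowest 10% by M. PLK1 was seen in 69.4%, 9.78% and 0.198% of those cells, and CDC20 in 88.8%, 32.2% and 3.17%. Cells chosen for a low M must have few such UMIs, so their shares give no free estimate of background RNA. Of genes that M did not read, PIF1 was seen in 41.8% of high-M cells, 5.67% of other cells and 3.77% of the lowest 10%, CENPA in 54.3%, 10.8% and 3.37%, and TOP2A in 95.3%, 58.2% and 28.6%. For PIF1 the share in other cells was close to that in the lowest 10%, whose interval ran from 2.28 to 5.82.

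The genes of the CHR pathway are shown here by promoters picked as examples, each with a CHR and a CCAAT box. The choice of cells did not use the sequence, but it did use the genes of M. Each line is the 150 bases before the first listed start of the gene from RefSeq (GRCh38.p14), written 5′ to 3′ on the strand of the gene. Capitals mark a CHR, searched as TTTGAA and as the palindrome TTTAAA, and a CCAAT box, each on either strand. In the promoters of lower genes shown further below they also mark an E2F site, searched as TTTCCCGC, as TTTGGCGC and as TTTGCCGC. No motif holds another on either strand. On the other strand a CCAAT box reads ATTGG and the CHR TTTGAA reads TTCAAA. PLK1, CCNB1 and CDC20 belong to M, and PIF1, KIF20A and DEPDC1 are among the 20 highest other genes. PSRC1, SMTN and CDC25B, also among these 20, had no CHR and are not shown.
PLK1 (chr16:23678739-23678888, plus strand): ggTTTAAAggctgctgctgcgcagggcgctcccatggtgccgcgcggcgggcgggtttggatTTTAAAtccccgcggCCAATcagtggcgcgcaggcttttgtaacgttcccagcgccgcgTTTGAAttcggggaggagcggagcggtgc
CCNB1 (chr5:69167000-69167149, plus strand): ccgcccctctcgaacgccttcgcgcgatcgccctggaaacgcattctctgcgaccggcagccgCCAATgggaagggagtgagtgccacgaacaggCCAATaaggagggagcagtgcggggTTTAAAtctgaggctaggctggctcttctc
CDC20 (chr1:43358831-43358980, plus strand): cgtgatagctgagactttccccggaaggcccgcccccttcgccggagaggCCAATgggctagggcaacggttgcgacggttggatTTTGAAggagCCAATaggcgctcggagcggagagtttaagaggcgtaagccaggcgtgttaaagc
PIF1 (chr15:64825648-64825797, minus strand): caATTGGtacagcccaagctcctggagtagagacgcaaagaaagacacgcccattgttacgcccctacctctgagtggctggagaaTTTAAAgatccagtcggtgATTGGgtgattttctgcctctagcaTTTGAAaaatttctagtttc
KIF20A (chr5:138178962-138179111, plus strand): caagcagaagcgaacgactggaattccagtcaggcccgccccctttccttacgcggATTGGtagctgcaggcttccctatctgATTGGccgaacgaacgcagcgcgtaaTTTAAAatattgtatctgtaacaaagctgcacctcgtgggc
DEPDC1 (chr1:68497083-68497232, minus strand): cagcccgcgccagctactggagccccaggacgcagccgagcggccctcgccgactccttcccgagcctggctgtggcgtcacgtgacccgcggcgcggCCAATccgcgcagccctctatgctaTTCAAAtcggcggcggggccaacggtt
In CCNB1 a CHR lay 30 bases before the start, after CCAAT boxes at 87 and 55 bases. CDC20 had a CHR at 65 bases between CCAAT boxes at 100 and 55 bases, and PLK1 had CHR letters at 148, 88 and 29 bases with a CCAAT box at 73. In PIF1 a CHR lay 20 bases before the start, in DEPDC1 27 bases and in KIF20A 41 bases.

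The same letters were counted over the higher genes at both sizes. Of the 94 genes at least 2-fold higher, the genes of M among them, 79 matched a RefSeq promoter of 300 bases (250 before to 50 after the start). A CHR was found in 61 of these (77.2%), against 15.5% of 6296 measured genes with a promoter and 24.3% of all 27305 promoters of the table. A CCAAT box was found in 79.7%, against 39.1% of measured genes, and both together in 67.1%, against 6.94%. An E2F site was found in 2.53% of these genes, against 5.30%. Of the 8 genes of M, 6 had a promoter, and all 6 held a CHR and a CCAAT box. No share was counted without the genes of M. Of the 285 genes higher by 0.5 or more on the log2 scale, 234 had a promoter, with a CHR in 47.4%, a CCAAT box in 62.4%, both in 35.5% and an E2F site in 3.85%. The CHR was also placed differently. Its median position was 30 bases before the start (quartiles 111 and 10) in the 2-fold higher genes and 139 bases before it (quartiles 200 and 47) in measured genes, and 73.0% of its copies in the higher genes lay within 100 bases of the start, against 37.5%. Among the 20 highest genes, 18 had a promoter, and CDC25B, PSRC1 and SMTN were those without a CHR in it. A match is a run of letters and not a shown binding site.

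Regulators of mitotic entry were unevenly higher. Of 27 measured genes, 14 were higher and 0 lower, with a median log2 ratio of 0.52. CDC25B, the phosphatase that activates CDK1, stood at 32.6 CPM in high-M cells and 7.74 CPM in other cells (2.07, 1.90 to 2.25). G2E3, a ubiquitin ligase, had a ratio of 1.57, the centrosome kinase NEK2 1.54 and CCNF, the F-box cyclin, 1.50. CDK1 itself, the kinase of cyclin B, stood at 235 CPM in high-M cells and 86.7 CPM in other cells (1.44), and AURKB, the kinase of the chromosomal passenger complex, at 125 and 46.0 CPM (1.44). FOXM1, a transcription factor of G2 genes, had 0.52 (0.39 to 0.66), and MYBL2, which encodes B-MYB, 0.06 (-0.00 to 0.11). CDC25A, the phosphatase that acts at S phase entry, stood at 24.1 and 28.5 CPM, a ratio of -0.24. So of the CDC25 phosphatases with a value here, CDC25B and CDC25A lay on opposite sides of 0.

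Genes of the spindle were the most uniformly higher. All 15 measured genes of the chromosomal passengers and cytokinesis were higher, with ratios of 0.96 to 2.42 and a median of 1.39. Of 14 mitotic kinesins, 13 were higher (median 1.20), and of 22 spindle assembly genes, 20 were higher (median 1.43). Those not past 0.5 were KIF2A, a microtubule depolymerase (0.03), NUMA1, a spindle pole protein that interphase nuclei also hold (-0.06), and STMN1, a tubulin-binding protein (0.21). CENPE, the kinesin that moves chromosomes to the spindle equator (ENSG00000138778; GRCh37 chromosome 4, 104026506 to 104119602, minus strand), stood at 185 CPM in high-M cells and 30.5 CPM in other cells, a ratio of 2.60 (2.52 to 2.69). KIF20A, a motor of the central spindle, stood at 29.5 and 5.52 CPM (2.42), KIF14 at 67.1 and 13.3 CPM (2.33), and KIF23, a subunit of centralspindlin, at 88.3 and 25.9 CPM (1.77).

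Proteins bound to the spindle also had high ratios. PSRC1, a microtubule-binding protein, stood at 41.7 CPM in high-M cells and 6.21 CPM in other cells (2.75), and FAM64A, a regulator of the metaphase to anaphase step, at 55.9 and 9.70 CPM (2.53). DLGAP5, which stabilises kinetochore fibres, had 2.41, ASPM, a spindle pole protein, 2.05, and KPNA2, an importin that binds spindle assembly factors, 2.00. TPX2, the activator of Aurora A on the spindle, stood at 248 and 70.8 CPM (1.81). Tubulins followed at a smaller size. TUBA1C had a ratio of 1.79 and TUBB4B of 1.51, while TUBA1B stood at 3407 CPM in high-M cells and 2206 CPM in other cells (0.63). Summed over 12 annotated tubulins, high-M cells held 6820 CPM and other cells 4062 CPM.

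Kinetochore genes differed among themselves. CENPA, the histone H3 variant that marks centromeres (ENSG00000115163; GRCh37 chromosome 2, 26987157 to 27023935, plus strand), stood at 108 CPM in high-M cells and 15.9 CPM in other cells, a ratio of 2.76 (2.65 to 2.88). Its chaperone HJURP had 1.38, and NUF2 and NDC80, subunits of the complex that grips microtubules, had 1.28 and 1.15. Of 30 measured genes of the list, 11 were higher and 1 lower, with a median of 0.43. The lower gene was CENPU, a subunit of the inner kinetochore, at 79.2 CPM in high-M cells and 114 CPM in other cells (-0.53, -0.61 to -0.45). CENPM, another subunit there, had 0.20.

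Of 11 spindle checkpoint genes, 5 were higher, with a median of 0.31. The kinase BUB1 stood at 114 CPM in high-M cells and 47.2 CPM in other cells (1.27), TTK, the kinase that starts checkpoint signalling, had 1.20, BUB1B 1.11, BUB3 0.75 and MAD2L1 0.54. MAD1L1, the partner of MAD2, had 0.31. Of 20 genes of the anaphase promoting complex and chromosome separation, 6 were higher and the median was 0.18. They included PTTG1, which encodes securin, at 421 and 164 CPM (1.36), UBE2S, the enzyme that extends ubiquitin chains, at 840 and 376 CPM (1.16), ESPL1, which encodes separase (1.08), FZR1, the activator that follows CDC20 (0.91), and the subunit CDC27 (0.84). CDCA3 led the list with 84.0 CPM in high-M cells and 22.8 CPM in other cells (1.88). FBXO5, the inhibitor of the complex in S and G2, had -0.27 (-0.37 to -0.17).

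Chromosome proteins were also uneven. Of 21 condensins, cohesins and related genes, 6 were higher, with a median of 0.26. TOP2A, the topoisomerase that untangles chromosomes, stood at 695 CPM in high-M cells and 163 CPM in other cells (2.10), and MKI67, which coats mitotic chromosomes, at 313 and 117 CPM (1.42). The condensin subunits NCAPD2, NCAPG and NCAPH had 0.91, 0.67 and 0.67, and RAD21, the cleaved subunit of cohesin, 0.51. HMGB2, a chromatin protein, stood at 1113 and 672 CPM (0.73), HMGB3 had 0.90 and H2AFX, the histone variant phosphorylated at DNA breaks, 0.85. At the nuclear border 2 of 20 genes were higher, SUN2, an inner membrane protein that links the nucleus to the cytoskeleton, at 46.2 CPM in high-M cells and 16.8 CPM in other cells (1.46), and LBR, the lamin B receptor (0.59).

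Several of the highest genes stand outside these groups. PIF1, a DNA helicase (ENSG00000140451; GRCh37 chromosome 15, 65107831 to 65117867, minus strand), stood at 82.7 CPM in high-M cells and 8.46 CPM in other cells, a ratio of 3.29 (3.14 to 3.44), the largest of any gene that M did not read. SMTN, which encodes the actin-binding protein smoothelin, stood at 16.6 and 2.92 CPM (2.51, 2.24 to 2.79). PRR11 had 1.97 and SAPCD2, a regulator of spindle orientation, 1.96. CDKN3, a phosphatase that acts on CDK proteins, stood at 139 and 42.3 CPM (1.72). MALAT1, a long noncoding RNA kept in the nucleus, stood at 11262 CPM in high-M cells and 7453 CPM in other cells (0.60, 0.59 to 0.60), and it was the only 1 of 13 measured noncoding RNAs past 0.5. RUNX1 itself stood at 66.1 and 70.9 CPM (-0.10, -0.20 to -0.01).

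Genes of S phase entry had the lowest ratios. CCNE2, which encodes cyclin E2, a partner of CDK2, stood at 6.73 CPM in high-M cells and 34.6 CPM in other cells, a ratio of -2.36 (-2.63 to -2.10), and CCNE1 (ENSG00000105173; GRCh37 chromosome 19, 30302898 to 30315219, plus strand) at 3.92 and 14.9 CPM, a ratio of -1.93. UNG, which removes uracil from DNA, stood at 25.8 and 75.5 CPM (-1.55). After thinning, a CCNE2 UMI was seen in 5.87% of high-M cells (4.54 to 7.45), 23.6% of other cells and 18.1% of the lowest 10% by M, and UNG in 15.6%, 41.1% and 35.3%. These genes were thus lower in high-M cells than in both of the other sets. FAM111B, WDR76, PAQR4 and ZNF367 followed with -1.42, -1.25, -1.11 and -1.10. E2F1, the transcription factor itself, stood at 57.8 CPM in high-M cells and 108 CPM in other cells (-0.90).

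DNA replication genes were lower as a group. Of 44 measured genes, 0 were higher and 18 lower, 42 lay below 0 and the median log2 ratio was -0.40. MCM5 and MCM4, subunits of the replicative helicase, stood at 78.8 and 49.4 CPM in high-M cells against 166 and 98.9 CPM in other cells (-1.08 for MCM5). CLSPN, which joins the fork to the checkpoint kinase, and CDC6, which loads the helicase on DNA, both had -0.94, and GINS2 had -0.83. PCNA, the sliding clamp of DNA polymerases, stood at 204 CPM in high-M cells and 359 CPM in other cells (-0.82), and a UMI of it was still seen in 78.5% of thinned high-M cells, against 87.9% of other cells. The list was uneven, since TK1, TYMS and UHRF1, which serve nucleotide supply and maintenance of DNA methylation, had -0.08, -0.18 and -0.10. Of 20 recombination and fork repair genes, 5 were lower, with EXO1 at -0.69 and ATAD2 at -0.63 among them, and the median was -0.11.

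The promoters of the lower genes had another make-up. Those of E2F1 and PCNA are shown for the E2F letters close to the start, in capitals with the CCAAT boxes. On the other strand TTTGCCGC reads GCGGCAAA, and TTTCCCGC reads GCGGGAAA.
E2F1 (chr20:33686386-33686535, minus strand): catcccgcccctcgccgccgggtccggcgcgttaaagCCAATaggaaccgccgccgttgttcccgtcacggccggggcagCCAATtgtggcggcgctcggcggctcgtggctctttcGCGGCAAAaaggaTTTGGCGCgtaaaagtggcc
PCNA (chr20:5126623-5126772, minus strand): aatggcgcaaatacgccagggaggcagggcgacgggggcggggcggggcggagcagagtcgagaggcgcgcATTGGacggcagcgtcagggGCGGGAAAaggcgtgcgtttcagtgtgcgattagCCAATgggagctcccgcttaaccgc
Of the 84 lower genes, 66 matched a promoter. An E2F site was found in 14 of them (21.2%), against 3.85% of the genes higher by the same size and 5.30% of measured genes, at a median of 31 bases before the start. A CHR was found in 7 (10.6%), against 47.4% of the genes higher by the same size, and a CCAAT box in 62.1%, against 62.4%. CCAAT boxes were thus as common in both lists, and the CHR and the E2F letters differed between them. Among the 20 lowest genes, 15 had a promoter, 7 with an E2F site (ZNF367, CLSPN, CDC6, E2F1, DTL, GINS2 and PCNA) and 2 with a CHR (CCNE1 and HIST1H1D).

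Housekeeping groups differed little. All 76 cytosolic ribosomal protein genes lay below 0, with a median of -0.12, and summed to 255269 CPM in high-M cells and 278346 CPM in other cells. Mitochondrially encoded genes had a median of -0.09, nuclear respiratory chain genes of -0.07, proteasome genes of 0.01, splicing factors of 0.11 and MYC target and nucleolar genes of 0.07, with 0 genes of these lists past 0.5. Of 23 heat shock and chaperonin genes, HSPA1B (18.0 CPM in high-M cells and 9.14 CPM in other cells, 0.98) and HSPA8 (0.53) were higher. Single genes stood out of otherwise flat lists, with KLF6, an early response transcription factor, at 0.86, MYB, a progenitor transcription factor, at -0.52, and ZMAT3, a p53 target, at -0.69.

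The level of replication-dependent histones depended on the share of cells taken. Of 15 measured genes, 0 were higher and 8 lower, with a median of -0.50 and with HIST1H1D at 63.8 CPM in high-M cells and 124 CPM in other cells (-0.95). HIST1H4C, which took most histone UMIs, stood at 3635 and 3875 CPM (-0.09), so the summed level was 4115 CPM in high-M cells and 4578 CPM in other cells. When the highest 30% of cells by M were taken instead, the median was 0.03 and HIST1H2AL had 0.06 instead of -0.54. The 15 genes are those of 88 annotated with enough UMIs, and histone transcripts mostly lack the poly(A) tail on which this assay primes. Near-identical histone copies can share UMIs, so single members are uncertain.

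When all passing cells were put in 10 bins of equal size by M, the gene groups peaked in different bins. The summed CPM of DNA replication genes was 4083 in the lowest bin, 6648 in bin 6 and 4041 in the highest bin. Histones summed to 935 CPM in the lowest bin, to 7153 in bin 8 and to 3227 in the highest, and the median cell held 5.58, 84.0 and 11.8 histone UMIs per 10000 in those bins. Mitotic kinesins were highest in the top bin, with 239 CPM in the lowest bin, 700 in bin 8 and 1321 in bin 10, and tubulins with 2117, 5847 and 7243 CPM. CCNE2 had 28.8 CPM in the lowest bin, 42.9 in bin 5 and 4.28 in bin 10. MALAT1 was lowest in bin 3 (6058 CPM) and highest in bin 10 (11763 CPM). Ribosomal proteins ran from 297282 CPM in the lowest bin to 254630 in the highest. The median depth ran from 10453.5 UMIs in bin 1 to 16922 UMIs in bin 10, and its part in these levels was not tested.

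**Figure D2:**
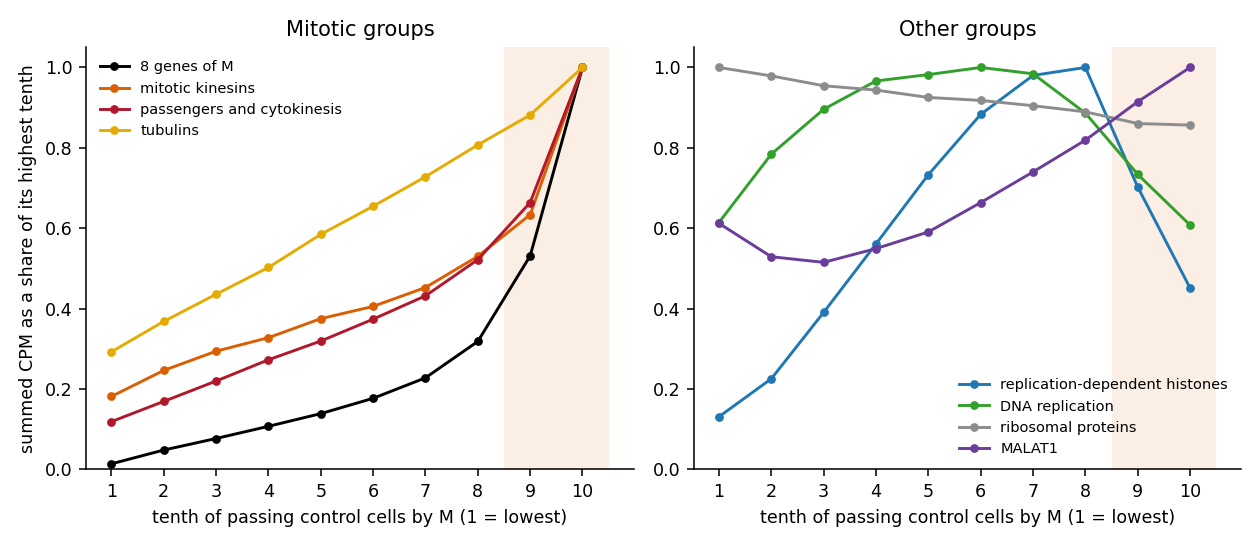
Summed CPM of gene groups in 10 equal bins of passing control cells by M, each divided by its highest bin. The shaded bins 9 and 10 hold nearly all high-M cells. Mitotic groups are highest in bin 10, DNA replication genes in bin 6, histones in bin 8, ribosomal proteins in bin 1 and MALAT1 in bin 10.

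Among the high-M cells, the 280 with the highest M were set against the 280 with the lowest M, as a description, since M chose both sets. Of 7731 genes measured, 395 (5.11%) were higher and 169 (2.19%) lower in the cells with the highest M. PIF1 stood at 141 CPM in the highest 280 cells and 34.2 CPM in the lowest 280 (2.04, 1.78 to 2.31), SMTN at 28.9 and 7.35 CPM (1.98), CENPE at 310 and 91.4 CPM (1.76) and KPNA2 at 660 and 234 CPM (1.50). PLK1, which is in M, had 1.72. HIST1H4C stood at 2380 CPM in the highest 280 cells and 5013 CPM in the lowest 280 (-1.07), HIST1H1E at 25.7 and 72.8 CPM (-1.50) and UNG at 17.7 and 36.1 CPM (-1.03). Their median depth was 16367 and 14073 UMIs. RUNX1 stood at 67.3 and 77.2 CPM (-0.20, -0.42 to 0.03).

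The histone UMIs split the high-M cells. Per cell, histone UMIs per 10000 had a median of 14.7 in high-M cells, with quartiles of 5.85 and 89.2. Cut at 35, a value chosen after the distribution was seen, 636 high-M cells (56.8%) were histone-low, with a median of 6.57, and 484 (43.2%) histone-high, with a median of 95.04. Between 20 and 50 lay 83 cells (7.41%), while 599 lay under 20 and 438 at 50 or more. The share of histone-high cells was 56.4% among the 280 high-M cells with the lowest M, then 46.8%, 40.7% and 28.9% in the following sets of 280. G2/M was called in 98.8% of thinned histone-low and 97.0% of thinned histone-high cells, so both sets carried the mitotic genes.

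**Figure D3:**
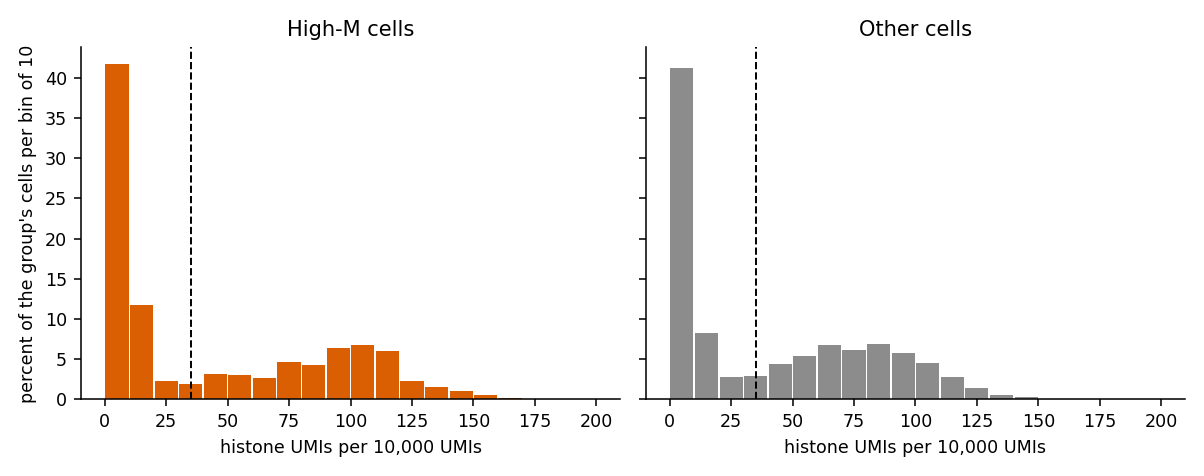
Percent of the 1120 high-M cells (left) and of the 4478 other cells (right) per bin of 10 histone UMIs per 10000 UMIs, with the dashed line at 35. Both groups have a peak near 0 and a broad second peak, which lies at more histone UMIs in high-M cells.

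Mitotic genes lay on both sides of 0 between the sets. TOP2A stood at 694 CPM in histone-low and 697 CPM in histone-high cells (-0.01), CENPE at 187 and 182 CPM (0.04), and CENPA at 107 and 110 CPM (-0.04). CCNB1 stood at 392 and 286 CPM (0.45) and CDC20 at 367 and 252 CPM (0.54). Both belong to M, whose median was 26.4 in histone-low and 21.0 in histone-high cells. Their ratios therefore follow in part from M. Outside M, CDC25B had 0.81 and PTTG1 0.43. Other mitotic genes were lower in histone-low cells, CKAP2L with -1.06, HJURP with -0.93, NDC80 with -0.87, CDCA2 with -0.70, PSRC1 with -0.63 and KIF20A with -0.60. Of 30 kinetochore genes 0 were higher and 6 lower (median -0.27), and of 15 genes of the passengers and cytokinesis 0 were higher and 3 lower (median -0.31). Of 7706 genes measured, 353 (4.58%) were higher in histone-low cells and 259 (3.36%) lower. FBXO5, the S and G2 inhibitor of the anaphase promoting complex, stood at 23.3 CPM in histone-low and 103 CPM in histone-high cells, a ratio of -2.15 (-2.35 to -1.94). E2F8, a repressor of E2F targets, had -1.91, MXD3, a partner of MAX, -1.75, CDKN2C, an inhibitor of CDK4 and CDK6, -1.26, RRM2, a subunit of ribonucleotide reductase, -1.12, and KLF6 -1.19. These genes were chosen after their values were seen. The other cells, cut at the same 35 into 2389 histone-low and 2089 histone-high cells, differed in the same direction, with FBXO5 at 42.9 CPM in histone-low and 89.5 CPM in histone-high cells, E2F8 at 16.4 and 42.1 CPM, MXD3 at 13.4 and 41.8 CPM and RRM2 at 90.2 and 219 CPM. For these genes the differences were not confined to high-M cells. KLF6 differed less there, at 14.8 CPM in histone-low and 18.4 CPM in histone-high other cells, against 19.9 and 45.4 CPM in high-M cells.

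On the higher side in histone-low cells stood genes of ribosome assembly. NOL6 had a ratio of 1.34, UTP14A of 1.01, RRS1 of 0.96, MAK16 of 0.95 and WDR74 of 0.90, all of them factors of ribosomal RNA processing or subunit assembly, and RRS1 stood at 88.8 CPM in histone-low and 45.5 CPM in histone-high cells. Among the other cells RRS1 likewise stood at 66.5 CPM in histone-low and 40.3 CPM in histone-high cells. Of 31 MYC target and nucleolar genes, 13 were higher and 0 lower, with a median of 0.42, against a median of 0.04 over all genes measured, and of 23 heat shock and chaperonin genes, 5 were higher, HSPA8 with 0.61. CBFA2T3, a corepressor, had 1.44 and UNG 0.83. Of 44 DNA replication genes, 11 were lower and 0 higher (median -0.28). Depth differed between the sets, with medians of 17705 UMIs in histone-low and 15168 UMIs in histone-high cells, and its part was not tested.

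The comparison cells also held both kinds. The 4478 other cells were divided at their median histone level into 2239 histone-rich and 2239 histone-poor cells. The summed DNA replication genes had a median of 70.1 per 10000 UMIs in histone-rich and 48.8 in histone-poor cells, and the 8 G2/M check genes of 8.55 and 2.33. Against the histone-rich cells, 351 of 7602 genes (4.62%) were higher in high-M cells and 152 (2%) lower. Kinesins then had a median of 0.72 with 10 of 14 higher, mitotic entry regulators 0.25 with 11 of 27 higher, and passengers and cytokinesis 0.97 with 15 of 15 higher. Of 44 DNA replication genes, 30 were lower (median -0.63). Histones chose these sets, so their ratios against either set follow from the split and are not given. FOXM1 had -0.01 in this comparison and 1.69 against histone-poor cells, and CDK1 had 235 CPM in high-M cells and 129 CPM in histone-rich cells.

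Against the histone-poor cells, 458 of 7596 genes (6.03%) were higher and 75 (0.987%) lower. Kinesins had a median of 2.43 with 13 of 14 higher, passengers and cytokinesis 2.19 with 15 of 15 higher, and 13 of 21 condensins and cohesins were higher. Of 44 DNA replication genes, 8 were lower and 1 higher (median -0.06). The cyclin E genes were lower against both sets, CCNE2 with 6.73 CPM in high-M cells against 37.1 CPM in histone-rich and 31.6 CPM in histone-poor cells. PIF1 was likewise higher against both, with 82.7 CPM against 9.69 and 6.93 CPM, and SUN2 had 1.39 and 1.55. With the cut of 35 in both groups, histone-low high-M cells were set against histone-low other cells, and histone-high against histone-high. Kinesins had medians of 2.13 and 0.88 in these comparisons, and DNA replication genes of -0.21 and -0.42. Histones made this cut as well, so their ratios are not given. CDCA3 stood at 84.0 CPM in high-M cells against 36.5 CPM in histone-rich and 5.79 CPM in histone-poor cells.

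The same rule was applied to the library labelled RUNX1, whose cells it did not use to choose the control cells. That library held 4800 passing cells, and 389 of them (8.10%, 7.35 to 8.91) reached the control threshold of 12.926. M was 0 in 44.1% of its cells and in 5.14% of control cells. Its own highest 20%, 960 cells, began at an M of 5.17 and are therefore a wider range of cells. In these over the rest of their library, 769 of 7922 genes (9.71%) were higher and 764 (9.64%) lower. Kinesins had a median of 3.04 with 13 of 14 higher. DNA replication genes had a median of 0.88 with 37 of 44 higher, and histones 1.35 with 14 of 17 higher and 2 lower, while in the control those medians were -0.40 and -0.50. CCNE2 had 0.14 and UNG -0.48, and MALAT1 had -0.56, against 0.60 in the control. The summed DNA replication genes had a median of 9.63 per 10000 UMIs in the other cells of that library and 62.5 in the other cells of the control.

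Leaving out the genes of M, 260 genes measured in both libraries were higher in the control comparison, and 166 of them (63.8% of the control list and 22.3% of the 745 genes of the library labelled RUNX1) were also higher there, against 10.3% of the 7219 genes measured in both, and 12 (4.62%) were lower there, against 5.72%. At 2-fold, 74 were shared, 88.1% of 84 and 27.3% of 271, against 3.75% of genes measured in both. Of the 77 lower genes of the control, 9 were also lower in the library labelled RUNX1 (11.7%, and 2.18% of 413), against 5.72% of genes measured in both, and 42 (54.5%) were higher there, against 10.3%.

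At the same threshold of M, the 389 cells of the library labelled RUNX1 were set against the 1120 high-M cells of the control. Their median M was 24.0 in both sets, and their median depth 24290 against 16257.5 UMIs. Of 7858 genes, 608 (7.74%) were higher and 1196 (15.2%) lower in the library labelled RUNX1, with a median ratio of -0.13, relative to which the values below can be read. Both sets were chosen by M, which in part sets the level of genes that go with it. Of 14 kinesins 0 were higher or lower (median -0.08), CDK1 stood at 234 and 235 CPM, and of 22 spindle assembly genes 3 were higher and 1 lower (median -0.13). Single mitotic genes were past 0.5 in both directions, with PSRC1 at 0.83, CDC25B at 0.59, AURKB at 0.57, SAPCD2 at -0.68 and CDC27 at -0.62. PIF1 stood at 135 CPM in the library labelled RUNX1 and 82.7 CPM in the control (0.70, 0.60 to 0.81). Other groups differed by more, with 17 of 31 MYC target and nucleolar genes lower (median -0.52, WDR43 at -1.34), 12 of 23 heat shock genes lower (-0.56) and 13 of 18 glycolysis genes lower and 1 higher (-0.78). Of 44 DNA replication genes, 16 were lower (-0.41). Ribosomal proteins had 0.25, with 12 of 76 higher and 7 lower. RUNX1 stood at 29.2 and 66.1 CPM (-1.18), and LYL1, a progenitor transcription factor, at 12.7 and 54.7 CPM (-2.11). Whether these differences come from RUNX1, doxycycline, the vector or the libraries cannot be told apart.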

How the data were processed

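Single-cell RNA-seq (10x Genomics Chromium) of Nalm-6 was used. The deposited values are raw UMI counts per gene and barcode, which the authors made with Cell Ranger 3.0.2 on hg19 and mm10 from pooled human and mouse cells after dead cells were depleted. Barcodes with more than 2000 and fewer than 6000 genes and under 20% mitochondrial UMIs were kept. UMIs were summed over cells and scaled to counts per 1000000 UMIs (CPM). Ratios used no pseudocount and genes at 10 CPM or more in either group, with exact conditional binomial 95% intervals. Genes past 0.5 in size on the log2 scale were counted. Cells are not replicates, so no test was made. The cells, the 35 gene lists (4 listed symbols were not annotated) and the comparisons were chosen with earlier results of these data known.

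Named genes are the 8 genes of M, the 20 highest and 20 lowest ratios, up to 6 genes of each list with the largest ratios in size, and RUNX1. All other named genes were chosen after their values were seen. Cells were thinned to 8000 UMIs for phase calls (scanpy 1.11.5) and for shares of cells with a UMI. Doublets were not called. Gene positions are those of GENCODE on GRCh37, and promoters are from RefSeq (GRCh38.p14), matched by symbol for 6296 of 7575 genes. Both strands were searched. The ratios and intervals were run on simulated Poisson counts with known ratios. Those counts held no single cells and no choice by M, so they check the calculation only. Depth per cell bounds each share, and the sums of 18871481 and 56882656 UMIs set the precision of CPM. Alternatives changed the share of cells, the cell filter, M, scaling, thinning and the gene floor. The 10 ChIP-seq samples were not analysed here. Python 3.11.15, numpy 2.4.6, pandas 2.3.3, scipy 1.17.1 and matplotlib 3.10.9 were used.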

Additional observations from a re-analysis of the deposited data

Results flagged for a closer look

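Some gene groups had opposite signs in the 2 libraries under the same rule, high-M cells over the other cells of their library. DNA replication genes had a median log2 ratio of 0.876 with the RUNX1 label and -0.398 in the control. Replication-dependent histones had 1.351 with that label and -0.505 in the control, where the top 30% of cells by M turned the sign. T cell markers, had -0.863 over 2 measured genes with the RUNX1 label and 0.455 over 3 in the control, while CD3D, CD3E and CD3G had 0 UMIs in the control. The difference between the libraries was not tested, since each is 1 library.

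Of the 475 control barcodes that the cell filter left out, 80 (16.8%, 13.6 to 20.5, exact Clopper-Pearson) reached the threshold of M, which is a signal in barcodes that the comparisons do not use. All but 2 of the 80 had 2000 genes or fewer (78 of 469 such barcodes), with a median of 2098.5 UMIs, so M rests on few UMIs there.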

How the results depend on the processing

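Of 7575 measured genes, 285 were higher and 84 lower in high-M cells. A floor of 1 CPM in place of 10 gave 696 higher and 399 lower, and a floor of 50 CPM gave 119 and 33. With the top 30% of cells, 50 genes were lower, and without mitochondrial and ribosomal protein genes in the totals, 246 were higher and 149 lower. With histone-low high-M cells only, a choice made after seeing the data, 439 were higher and 184 lower. The median of mitotic entry regulators (0.52) was 0.42 in cells under 10% mitochondrial UMIs, 0.46 with those totals, 0.44 with the median ratio set to 0 and 0.28 in histone-low high-M cells only. Spindle checkpoint genes (0.31) had 0.64 at a floor of 50 CPM, and DNA replication genes (-0.40) had -0.57 with histone-low high-M cells only. The histone median (-0.50) turned to 0.0322 with the top 30% of cells, as HIST1H2AL did (0.0641). It was -0.31 after thinning, -0.47 with the totals above, -0.22 as a mean of per cell CPM, -0.41 at a floor of 1 CPM and, chosen after seeing the data, -0.32 without the deepest 5% of cells. The cause of these shifts was not tested. Medians of kinesins (1.11 to 1.32), spindle assembly (1.34 to 1.53) and passengers and cytokinesis (1.305 to 1.496) stayed past 0.5 in every alternative run. Taking CENPF, the gene of M with the most UMIs (12753), out of M moved no list median across 0.5 in size. G2/M was called in 97.5% of high-M cells without thinning. No paired analysis was possible because each condition was 1 library.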
